A study of Homo sapiens and Mus musculus with 22 samples.

Results

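The ZNF genes are named for their zinc fingers, and 236 of the 526 ZNF genes in the SETDB1 table, which holds 24549 genes, were expressed in wild type U2OS, an established human osteosarcoma cell line. They were chosen by symbol (ZNF followed by a digit, leaving out loci that join several symbols) and by a mean of at least 3 FPKM (fragments per length of transcript, scaled to the mapped fragments of the library) over the 2 wild type libraries. The RNA of U2OS cells was compared in SETDB1 KO1 and SETDB1 KO2, which are separate knockouts of the H3K9 methyltransferase SETDB1, and in wild type (WT), all mock-treated, with 2 libraries each. In a further set, ATG5 KD (a knockdown of the autophagy gene ATG5) and Vector cells were either given BIX-01294 (BIX), an inhibitor of the methyltransferases EHMT1 and EHMT2, at 10 µM for 12 h, or mock-treated, with 1 value per group that stands for 2 replicates per the labels. These are 10 of the 22 samples of the series. The mouse L929 samples and the chromatin immunoprecipitation samples were not analysed here. The submitters' treatment note says that the RNA samples all received BIX, while the sample names call 8 of the 10 mock, and the names were followed. The sources used here do not say how the knockouts and the knockdown were made, whether a knockout is a single clone, or whether replicates were separate cultures. P-values therefore measure the spread between these libraries, which may be technical.

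Most zinc finger genes of this kind encode DNA-binding proteins with tandem C2H2 fingers, and many carry a KRAB domain. In the textbook pathway, a KRAB zinc finger protein bound to DNA recruits the corepressor TRIM28, which brings in SETDB1 to place H3K9me3 and HP1 proteins (CBX1, CBX3 and CBX5) to bind it. Human zinc finger genes lie largely in tandem clusters, many of them on chromosome 19. H3K9me3 is known to cover the 3′ ends of genes in such clusters. ZNF274 binds those 3′ ends and takes part in bringing SETDB1 there.

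The 236 genes had WT means of 3.02 to 57.6 FPKM, with a median of 6.07 and quartiles of 4.21 and 11.0. In all, 91 were at 3 to 5 FPKM, 81 at 5 to 10 FPKM and 64 at 10 FPKM or more, and the median coefficient of variation between the WT libraries was 6.64%. The highest levels were those of ZNF655, a Vav-interacting Krüppel-like protein, at 57.2 and 58.0 FPKM in WT, ZNF358 at 54.0 and 53.4, ZNF580 at 48.2 and 45.6, ZNF22 at 41.6 and 47.5 and ZNF146, a protein of zinc fingers without a KRAB domain, at 43.5 and 44.7. FPKM is given per length, so these levels can be set beside each other, and the WT libraries of ZNF22 overlap those of ZNF580 and of ZNF146. Just inside the threshold lay ZNF251 (3.18 and 2.86 FPKM in WT), ZNF586 (2.98 and 3.07) and ZNF620 (2.84 and 3.23). Just outside lay ZNF550 (2.73 and 3.25), ZNF334 (2.23 and 3.73) and ZNF286A (2.90 and 2.94). By RefSeq, 229 of the genes code for proteins, 4 are transcribed pseudogenes and 3 are long non-coding RNAs. Chromosome 19 holds 85 of them and the other chromosomes 151, with 20 on chromosome 16, 15 on chromosome 7 and 13 on chromosome 10.

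Promoters from RefSeq (GRCh38.p14), from 250 bases before to 50 after the first-listed start of a symbol, were matched for 202 of the 236 genes. The promoters of 4 genes are shown because the largest differences described here are theirs (ZNF780B and ZNF274 in the SETDB1 KOs, ZNF697 with BIX) or lie in the chromosome 19 run with most of them (ZNF841). They lie at chr19:40056182-40056481 (minus strand, ZNF780B), chr19:52095716-52096015 (minus, ZNF841), chr19:58182811-58183110 (plus, ZNF274) and chr1:119648217-119648516 (minus, ZNF697), and each is written 5′ to 3′ along its gene. Capitals mark the core of the ETS family motif, CCGGAAG, on either strand.
ZNF780B: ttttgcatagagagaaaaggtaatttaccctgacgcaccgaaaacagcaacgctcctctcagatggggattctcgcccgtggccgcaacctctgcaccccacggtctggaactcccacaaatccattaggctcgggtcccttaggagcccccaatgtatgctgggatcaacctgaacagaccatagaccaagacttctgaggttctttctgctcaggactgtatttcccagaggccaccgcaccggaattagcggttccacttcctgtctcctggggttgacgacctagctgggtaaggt
ZNF841: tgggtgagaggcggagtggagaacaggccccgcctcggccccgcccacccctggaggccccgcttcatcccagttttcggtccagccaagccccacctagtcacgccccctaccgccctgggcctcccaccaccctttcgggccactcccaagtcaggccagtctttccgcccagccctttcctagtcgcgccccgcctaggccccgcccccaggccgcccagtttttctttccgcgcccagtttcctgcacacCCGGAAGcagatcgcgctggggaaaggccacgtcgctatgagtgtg
ZNF274: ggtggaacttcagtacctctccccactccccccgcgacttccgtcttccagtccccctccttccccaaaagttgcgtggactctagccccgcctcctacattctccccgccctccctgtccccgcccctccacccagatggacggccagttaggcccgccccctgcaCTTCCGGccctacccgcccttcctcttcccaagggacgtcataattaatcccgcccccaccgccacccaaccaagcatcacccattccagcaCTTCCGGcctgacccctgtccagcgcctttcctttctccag
ZNF697: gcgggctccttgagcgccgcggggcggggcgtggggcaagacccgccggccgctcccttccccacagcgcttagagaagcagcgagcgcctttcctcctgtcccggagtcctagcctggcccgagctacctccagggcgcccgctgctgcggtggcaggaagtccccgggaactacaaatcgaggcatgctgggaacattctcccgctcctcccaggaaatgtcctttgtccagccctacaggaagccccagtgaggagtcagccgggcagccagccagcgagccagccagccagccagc
ZNF841 had 1 match and ZNF274 had 2, while these letters are not in the windows of ZNF780B and ZNF697. The ETS core stood in 42.1% of the 202 promoters, against 10.7% of all 27305 promoters of the same length. Its share was 37.5% among the 40 promoters of genes higher in the SETDB1 KOs and 43.2% among the other 162. On chromosome 19 it was 44.2%, and on the other chromosomes 40.8%. A motif of the factor NRF1 stood in 14.4% of the 202 against 6.28% of all, the Sp1 motif GGGCGGG in 44.1% against 32.9%, the YY1 motif AAGATGGCG in 3.96% against 1.85%, the CRE TGACGTCA in 5.45% against 1.98%, and the CARE TGATGNAA in 1.49% against 3.67%. Both strands were searched, and matches of different motifs may overlap, since the ETS core ends in the letters with which the YY1 motif starts. The 202 promoters were also richer in CpG (median 24 against 14 over all promoters) and in GC (62.7% against 58.3%), and the part of this in the motif shares was not tested. The members were chosen by expression in U2OS while the 27305 promoters were not, and the part of that was not tested either.

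SETDB1 RNA was at 5.90 and 7.03 FPKM in KO1 and 6.89 and 7.35 in KO2, against 9.98 and 9.32 in WT. It fell by 0.45 ± 0.11 (SE) in the mean of the KOs on the log2(FPKM + 1) scale, on which every fitted difference here is given (limma, adjusted p = 0.0432), while neither KO alone passed (adjusted p = 0.0569 in KO1 and 0.202 in KO2). All 4 KO libraries were below both WT libraries, and the RNA level does not report whether the protein was lost. SPARC (439 to 571 FPKM), VIM and COL1A1, which are high in mesenchymal cells including the osteoblast lineage, were abundant in the 6 libraries. Of the same list, RUNX2 was at 2.99 to 5.50 FPKM, ALPL at 0.791 to 2.28 and COL1A2 at 0.0667 to 0.154. The leukocyte gene CD3E was at 0. The epithelial gene CLDN4 was at 5.57 to 12.0 FPKM and EPCAM at 1.83 to 3.68. In these bulk samples fewer cells of a type and less RNA per cell cannot be told apart.

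In the SETDB1 KOs, 44 of the 236 ZNF genes rose and 1 fell against WT in the mean of KO1 and KO2 (limma, adjusted p below 0.05 over all genes). That is 18.6% higher and 0.424% lower, beside 2.46% higher and 0.781% lower over the 12545 genes tested, and 0.769% higher and 0.779% lower over the 10014 genes other than ZNF genes at 3 FPKM or more in WT. The WT libraries chose the members and are also the baseline of this difference, so the counts are a description. Genes chosen instead at 3 FPKM or more in Vector mock, which shares no library with WT, numbered 214, of which 186 were the same genes, and 39 of them were higher and 1 lower. The median difference of the 236 genes was 0.11, beside -0.01 over all genes tested, with 182 above 0 and 54 below. A further 34 higher and 4 lower genes had an unadjusted p under 0.05 and were not called. Without WT replicate 1, which leaves 1 WT library, fewer members were called higher, all of them among the 44. Calls over all genes fell as well, and the median member difference was then 0.13.

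KO1 on its own had 34 higher and 0 lower members (all genes tested: 1.91% and 0.518%; genes other than ZNF genes at 3 FPKM or more in WT: 0.489% and 0.519%), and KO2 had 37 higher and 0 lower (all genes tested: 2.01% and 0.438%; the others at 3 FPKM or more: 0.579% and 0.409%). Lower at an unadjusted p under 0.05 were 4 members in KO1 and 4 in KO2. The KOs share the WT libraries. In all, 33 genes passed in KO1, in KO2 and in the mean. Every KO library lay above both WT libraries in 89 of the 236 genes (37.7%, beside 10.2% of all genes tested and 7.34% of the others at 3 FPKM or more) and below both in 13 (5.51%, beside 11.2% and 11.7%). Leaving out WT replicate 1 gave fewer called members in KO1 and in KO2, and leaving out KO2 replicate 2 gave fewer in KO2. Calls over all genes fell in these settings as well, and each leaves 1 library in a group.

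The largest rise was that of ZNF780B, a KRAB zinc finger gene on chromosome 19. It was at 16.03 and 18.4 FPKM in KO1 and 13.7 and 15.96 in KO2, against 4.22 and 4.36 in WT, a ratio of means of 3.73 and a difference of 1.68 ± 0.11 (SE, adjusted p = 2.95e-06). Its neighbour ZNF780A, a close copy between which and ZNF780B the counting could split reads, was at 5.22 and 6.82 in KO1 and 4.92 and 6.52 in KO2, against 3.58 and 4.46 in WT, and did not pass (difference 0.45 ± 0.14, adjusted p = 0.157). The KO and WT libraries did not overlap in either gene. ZNF274 itself rose. It was at 17.2 and 18.2 FPKM in KO1 and 19.3 and 19.8 in KO2, against 5.70 and 7.11 in WT (difference 1.41 ± 0.11, adjusted p = 8.58e-06), and the lowest KO library was far above the higher WT library.

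ZNF420, which encodes a KRAB protein known as Apak, a repressor of p53-dependent apoptosis genes, was at 13.0 and 16.6 FPKM in KO1 and 12.6 and 14.7 in KO2, against 4.52 and 4.95 in WT (difference 1.40 ± 0.12, adjusted p = 2.27e-05). ZNF83 was at 8.88 and 11.3 FPKM in KO1 and 10.1 and 11.4 in KO2, against 2.81 and 4.37 in WT (1.33 ± 0.15). Neither gene had a KO library within the WT range, and the WT libraries of ZNF83 stood further apart than those of ZNF420. ZNF239 on chromosome 10 was at 10.2 and 10.9 FPKM in KO1 and 11.7 and 11.7 in KO2, against 3.26 and 4.49 in WT (1.32 ± 0.12). ZNF542P, a transcribed pseudogene, was at 77.2 and 85.8 FPKM in KO1 and 85.3 and 80.3 in KO2, against 33.6 and 31.7 in WT (1.30 ± 0.09). It was the member of highest WT level among the 14 named risers. ZNF841 was at 11.5 and 13.8 FPKM in KO1 and 10.6 and 15.4 in KO2, against 4.21 and 4.95 in WT (1.30 ± 0.14). ZNF566 was at 10.1 and 11.7 FPKM in KO1 and 9.55 and 12.2 in KO2, against 4.596 and 4.27 in WT (1.12 ± 0.12). In both genes the libraries of each KO differed more from each other than the WT libraries did, and the groups stayed apart.

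ZNF32-AS1, a long non-coding RNA gene, was at 13.1 and 9.69 FPKM in KO1 and 10.6 and 12.4 in KO2, against 3.51 and 6.70 in WT (1.07 ± 0.19, adjusted p = 0.00583). ZNF32, its partner gene, was at 29.5 and 32.7 FPKM in KO1 and 36.4 and 33.1 in KO2, against 14.02 and 24.6 in WT (0.79 ± 0.17, adjusted p = 0.0194). The sources used here do not say whether the libraries kept strand, so reads of the pair cannot be told apart, and both had WT libraries far from each other. ZNF75A on chromosome 16 was at 23.6 and 23.3 FPKM in KO1 and 26.4 and 23.8 in KO2, against 10.7 and 11.5 in WT (1.06 ± 0.09). ZNF577 was at 8.75 and 9.91 FPKM in KO1 and 9.14 and 10.5 in KO2, against 3.68 and 4.79 in WT (1.02 ± 0.12). In these genes too, all KO libraries were above all WT libraries. ZNF480 was at 9.83 and 9.19 FPKM in KO1 and 9.12 and 9.32 in KO2, against 4.33 and 4.27 in WT (0.97 ± 0.10). ZNF529 was at 8.01 and 8.66 FPKM in KO1 and 7.14 and 8.39 in KO2, against 4.50 and 3.12 in WT (0.92 ± 0.13). ZNF347 was at 7.24 and 7.97 FPKM in KO1 and 6.09 and 8.93 in KO2, against 3.24 and 3.74 in WT (0.92 ± 0.14). The ratio of KO to WT mean FPKM was at least 2 in the 14 named risers, and the other 30 rose by 0.44 to 0.84.

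ZNF185, an X-linked gene whose product has a LIM domain and binds the actin cytoskeleton, was the single member that fell. It was at 22.0 and 20.5 FPKM in KO1 and 20.6 and 23.0 in KO2, against 29.7 and 28.8 in WT (difference -0.43 ± 0.09, adjusted p = 0.0251). All KO libraries were below both WT libraries, but neither KO alone passed (adjusted p = 0.0552 in KO1 and 0.0855 in KO2), and the call was lost without KO1 replicate 2, KO2 replicate 1 or either WT library.

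**Figure D1:**
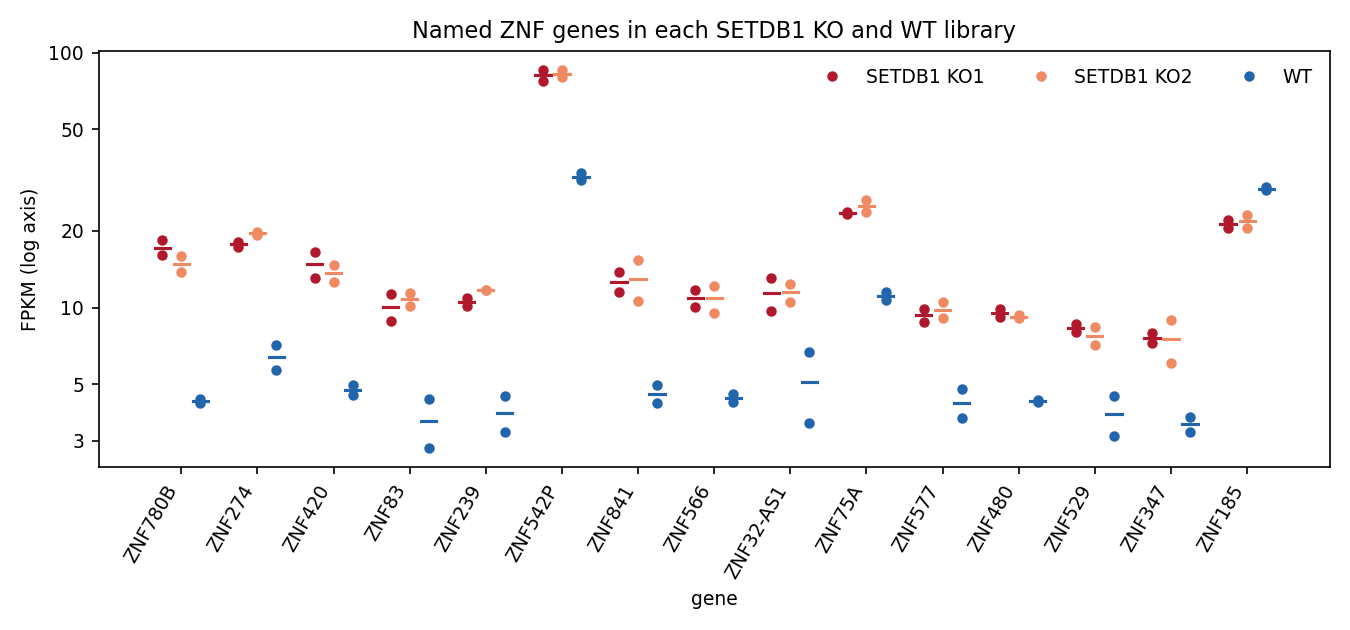
FPKM (log axis) of the 14 named ZNF genes that rose in the SETDB1 KOs and of ZNF185, which fell, with 1 point per library and a bar at the mean of the 2 libraries of each group. In every gene the 4 KO points and the 2 WT points do not overlap, and ZNF542P stands highest, at 77.2 to 85.8 FPKM in the KOs and 31.7 to 33.6 in WT.

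No member was called between KO1 and KO2 (limma, 0 of 236, beside 0% of all genes). At an unadjusted p under 0.05 there was 1 member, beside 202 of all genes, and the median absolute difference was 0.064. The difference was largest in ZNF669, a KRAB zinc finger gene on chromosome 1, at 4.24 and 6.27 FPKM in KO1 against 3.35 and 2.88 in KO2 (0.59, adjusted p = 1.00). Next came ZNF789 at 1.75 and 2.56 in KO1 against 3.65 and 2.11 in KO2, where the groups overlap, and ZNF248 at 5.21 and 8.87 in KO1 against 7.18 and 10.0 in KO2, which overlap as well.

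The called genes were spread unevenly over WT levels and chromosomes. Of the 91 genes at 3 to 5 FPKM in WT, 27 were higher in the KOs, of the 81 at 5 to 10 FPKM 13, and of the 64 at 10 FPKM or more 4. The WT level that sorts these bands is also the baseline of the difference, so the sorting alone favours rises in the lowest band. Its part was not tested, and shares of other genes in these bands are not given here. On chromosome 19, 27 of 85 genes were higher (31.8%, median difference 0.36), and on the other chromosomes 17 of 151 (11.3%, median 0.05). The others were uneven too: chromosomes 5 and 12 had 3 of 7 each and chromosome 10 had 4 of 13. Chromosome 16 had 2 of 20 and chromosome 7 had 2 of 15. Within 3 to 5 FPKM, 19 of 47 genes were higher on chromosome 19 and 8 of 44 elsewhere. At 5 FPKM or more, the counts were 8 of 38 and 9 of 107. The split by chromosome was therefore seen on both sides of 5 FPKM, and it was described without a test. Over all genes tested 2.46% were higher, but shares of the other genes by chromosome are not given here. A split of ZNF genes and one of all genes on chromosome 19 therefore cannot be told apart.

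**Figure D2:**
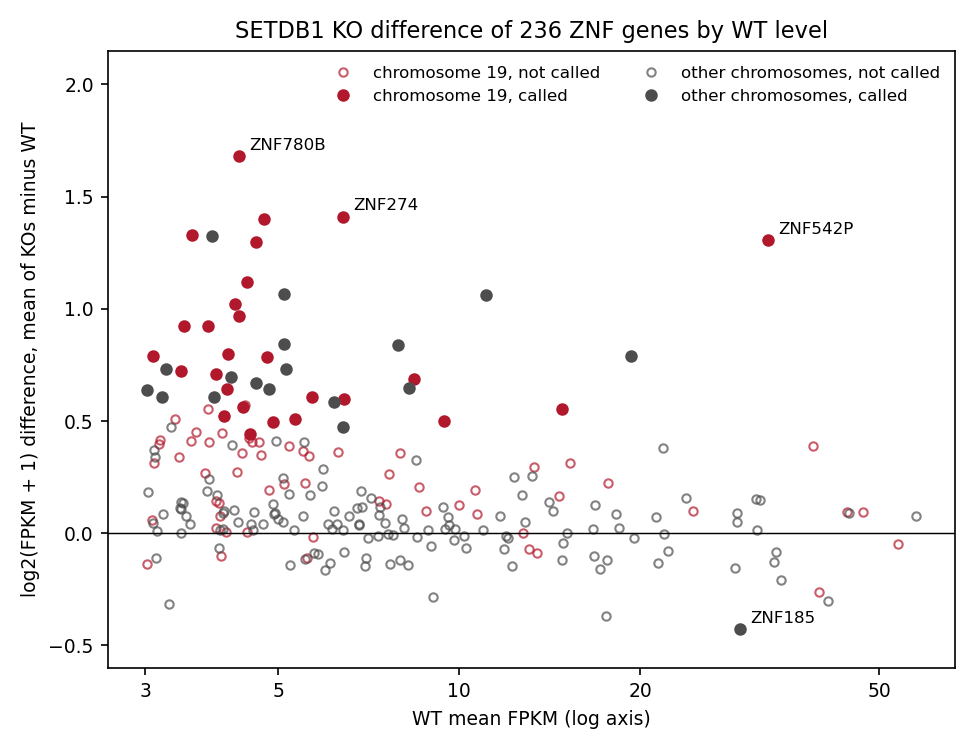
Difference between the mean of the SETDB1 KOs and WT on the log2(FPKM + 1) scale against WT mean FPKM (log axis) for the 236 ZNF genes, in red on chromosome 19 and grey elsewhere, filled where called by limma (adjusted p below 0.05). Called genes gather at low WT levels, where 27 of the 91 genes at 3 to 5 FPKM are filled, and ZNF542P is called at a WT mean of 32.6 FPKM. WT is also the baseline of the vertical axis, so the axes are not independent.

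By gene order in RefSeq (GRCh38.p14), 6 runs of chromosome 19 held at least 5 members. Successive zinc finger genes of a run had no more than 2 other protein-coding genes between them. Genes that neither code for proteins nor are members were not counted. In the run from ZNF565 to ZNF573, 7 of 9 members rose (median 0.71): ZNF420, ZNF566, ZNF529, ZNF585A (0.80), ZNF569 (0.71), ZNF567 (0.61) and ZNF260 (0.50), while ZNF383 (0.55) and ZNF146 (0.09) did not pass. In the run from ZNF577 to ZNF331, 10 of 15 rose (median 0.56), among them ZNF83, ZNF841, ZNF577, ZNF480, ZNF347, ZNF320 (0.72) and ZNF331 (0.60), an imprinted gene. In the run from ZNF699 to ZNF846, 3 of 6 rose (median 0.46), and in that from ZNF264 to ZNF446, which holds ZNF274, 4 of 17 (median 0.41). None of the 10 members in the run from ZNF283 to ZNF180 (median 0.14) and none of the 5 in the run from ZNF579 to ZNF580 (median 0.09) was called (limma), and at an unadjusted p under 0.05 there were 2 and 0. Runs of the same chromosome thus ran from 0 called members to most of them. Outside the 6 runs, 3 of 23 members of chromosome 19 were higher (13.0%), beside 11.3% on the other chromosomes. Neighbouring copies of one another, such as ZNF585A and ZNF585B, may share reads, and the sources used here do not say how the authors' counting split them.

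Called members often lay beside each other off chromosome 19 too. ZNF354A, ZNF354B and ZNF354C, a KRAB family of chromosome 5, rose by 0.65, 0.84 and 0.84. ZNF354B, for one, was at 14.1 and 15.1 FPKM in KO1 and 13.7 and 16.9 in KO2, against 7.38 and 8.43 in WT, with no overlap. ZNF605, ZNF140 and ZNF268 on chromosome 12 rose by 0.67, 0.73 and 0.59. On chromosome 10 ZNF239, ZNF32 and ZNF32-AS1 follow each other among the members, and on chromosome 7 ZNF107 (0.61) and ZNF138 (0.73) do. Of the 44 higher genes, 33 (75.0%) had a higher gene as the next member before or after them on the chromosome, and of the 192 other members 35 (18.2%) had. Cluster members often share sequence and may share reads, and the part of this in the counts was not tested.

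The partners of SETDB1 were read from a list of 29 symbols of the H3K9 methylation pathway, of which 27 were tested in the SETDB1 set. ATF7IP, which binds and stabilises SETDB1, rose: it was at 34.3 and 31.7 FPKM in KO1 and 30.3 and 40.9 in KO2, against 14.3 and 14.3 in WT (difference 1.20 ± 0.12, adjusted p = 5.54e-05). Its relative ATF7IP2 rose by 0.77 (adjusted p = 0.0110), and SETDB1 was the single member that fell. The other 24 did not pass, including TRIM28 (142 and 128 FPKM in KO1 and 142 and 124 in KO2, against 145 and 127 in WT), whose groups overlap.

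BIX moved ZNF genes in both directions. In the additive fit over Vector and ATG5 KD, 80 of 200 members (40.0%) were called higher and 49 (24.5%) lower, beside 33.6% and 32% of the 12290 genes tested and 35.5% and 31.7% of the genes other than ZNF genes at 3 FPKM or more in WT. Calls were thus common over all genes. The fit rests on 4 values with 1 residual degree of freedom, and its error measures how far the BIX difference in ATG5 KD and that in Vector lie apart. With each value column centred on its median, 70 members were higher and 58 lower, beside 29.5% and 37.3% of all genes. The table gives 35 of the 236 genes inside loci that join several symbols, among them ZNF780B, ZNF841 and ZNF577, and these have no value here. At least 2-fold higher with BIX were 9 of 201 members in Vector (4.48%, beside 6.36% of all genes), and 8 were at least 2-fold lower (beside 4.31%). In ATG5 KD 16 of 199 were higher (beside 8.05%) and 9 lower (beside 3.7%). In both, 8 were 2-fold higher (3.98%, beside 5.39%) and 5 lower (2.49%, beside 2.81%), which is near the background. The same sign in both was seen for 111 higher (55.2%, beside 45.1%) and 69 lower members (34.3%, beside 44.3%), and 21 had opposite signs. The median member difference was 0.12 in ATG5 KD and 0.15 in Vector, beside 0.01 and 0.00 over all genes.

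ZNF697 changed most with BIX. It was at 48.2 FPKM with BIX and 5.801 in mock in ATG5 KD, and at 32.6 with BIX and 5.67 in mock in Vector (fitted difference 2.59 ± 0.13 SE, limma adjusted p = 7.81e-06). In the SETDB1 KOs it did not pass, with 5.61 and 5.04 FPKM in KO1 and 4.91 and 5.31 in KO2, against 5.73 and 6.20 in WT (adjusted p = 0.671). Both of its BIX values were far above both mock values. ZNF121 was at 25.3 FPKM with BIX and 8.40 in mock in ATG5 KD, and at 25.3 and 8.72 in Vector (1.46). ZNF620 was at 8.33 with BIX and 2.59 in mock in ATG5 KD, and at 8.58 and 2.83 in Vector (1.35). ZNF800 was at 12.4 with BIX and 4.42 in mock in ATG5 KD, and at 10.8 and 4.27 in Vector (1.23). These 3 rose alike in both backgrounds and were not called in the SETDB1 KOs. ZNF316 (1.15) and ZNF330, which encodes a nucleolar protein (1.14), also rose by at least 2-fold in both.

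ZNF76, a relative of the transcription factor ZNF143, fell most with BIX. It was at 1.51 FPKM with BIX and 7.67 in mock in ATG5 KD, and at 0.836 with BIX and 7.36 in mock in Vector (fitted difference -1.99 ± 0.13 SE, adjusted p = 2.07e-05). ZNF362 was at 2.06 with BIX and 7.90 in mock in ATG5 KD, and at 3.36 and 11.9 in Vector (-1.55). Both BIX values of each gene lay below both mock values. ZNF280D (-1.24), ZNF74 (-1.19) and ZNF514 (-1.06) fell by at least 2-fold in both backgrounds as well.

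**Figure D3:**
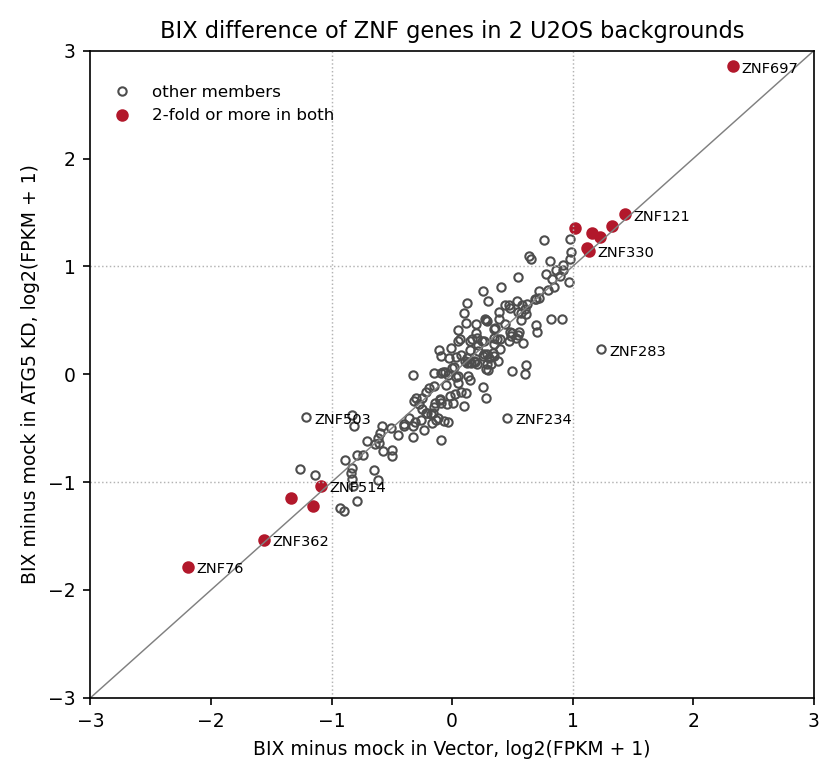
Difference between BIX and mock on the log2(FPKM + 1) scale in ATG5 KD (vertical) against that in Vector (horizontal), with 1 point per ZNF gene, in red where at least 2-fold in the same direction in both, dotted lines at 2-fold and a line of equality. Most points lie along the line, ZNF697 and ZNF76 are the extremes, and ZNF283, ZNF234 and ZNF503 lie off it.

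The BIX differences of ATG5 KD and Vector lay furthest apart in ZNF283, which was at 20.8 FPKM with BIX and 17.6 in mock in ATG5 KD, and at 20.7 and 8.25 in Vector. Its BIX difference in ATG5 KD minus that in Vector was -1.002. ZNF503, a transcriptional corepressor of the NET family, was at 9.13 with BIX and 12.4 in mock in ATG5 KD, and at 10.3 and 25.2 in Vector. In both genes the Vector mock value stands apart from the other 3. With 1 value per group these differences were not tested.

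The genes that rose in the SETDB1 KOs moved in both directions with BIX. Of the 34 with a value in the fit, 15 were higher with BIX (44.1%) and 10 lower (29.4%), and of the 165 members not called in the KOs, 65 were higher (39.4%) and 38 lower (23.0%). Across 200 members the KO and BIX differences had a Pearson correlation of 0.05 and a Spearman correlation of 0.03. The tables share no library, and the points share gene length and sequence features. Members that rose in the KOs and were at least 2-fold higher with BIX in both backgrounds numbered 2, ZNF274 and ZNF542P. ZNF274 was at 24.5 FPKM with BIX and 8.93 in mock in ATG5 KD, and at 21.5 and 10.1 in Vector (1.19 ± 0.10, adjusted p = 6.34e-05). ZNF514 differed in direction. In the SETDB1 set it was at 6.96 and 8.53 FPKM in KO1 and 6.25 and 7.94 in KO2, against 4.02 and 4.33 in WT (0.70 ± 0.13, adjusted p = 0.00753). With BIX it was at 2.59 FPKM against 6.35 in mock in ATG5 KD, and at 2.94 against 7.37 in Vector. ZNF32 likewise rose in the KOs and fell with BIX, with 10.0 FPKM against 20.1 in mock in ATG5 KD and 8.87 against 20.7 in Vector (-1.03).

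**Figure D4:**
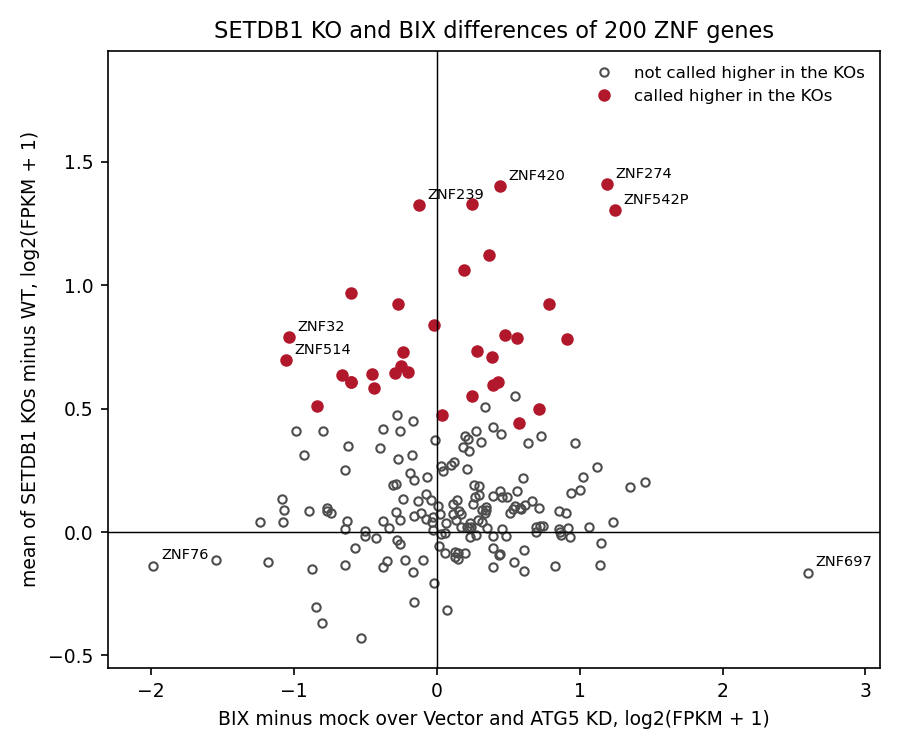
Difference between the mean of the SETDB1 KOs and WT (vertical) against the fitted difference between BIX and mock (horizontal), both on the log2(FPKM + 1) scale, for the 200 ZNF genes in both fits, in red where called higher in the KOs. The red points lie on both sides of 0 on the BIX axis (15 called higher and 10 called lower of 34), with ZNF274 and ZNF542P at the upper right.

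The chromosome 19 runs with the most KO risers gave unlike counts with BIX. In the run from ZNF565 to ZNF573 all 9 members were called higher with BIX (median 0.48), from 0.36 in ZNF566 to 0.79 in ZNF529. ZNF529 was at 8.18 FPKM with BIX and 4.36 in mock in ATG5 KD, and at 10.4 and 5.57 in Vector. In the run from ZNF577 to ZNF331, of 8 members with a value, 1 was higher (ZNF331, 0.39) and 2 were lower (ZNF766, -0.84, and ZNF480, -0.60), with a median of -0.07. ZNF480 was at 7.59 with BIX and 10.2 in mock in ATG5 KD, and at 3.89 and 7.67 in Vector. In the run from ZNF699 to ZNF846, 4 of 5 were called higher and 0 lower (median 0.56), and 1 was lower at an unadjusted p under 0.05. Over chromosome 19, 31 of 63 members were higher and 13 lower (median 0.31), and over the other chromosomes 49 and 36 of 137 (median 0.12). These counts stand beside 33.6% higher and 32% lower over all genes tested, and 40.0% and 24.5% over the members. The difference between the runs was not tested.

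**Figure D5:**
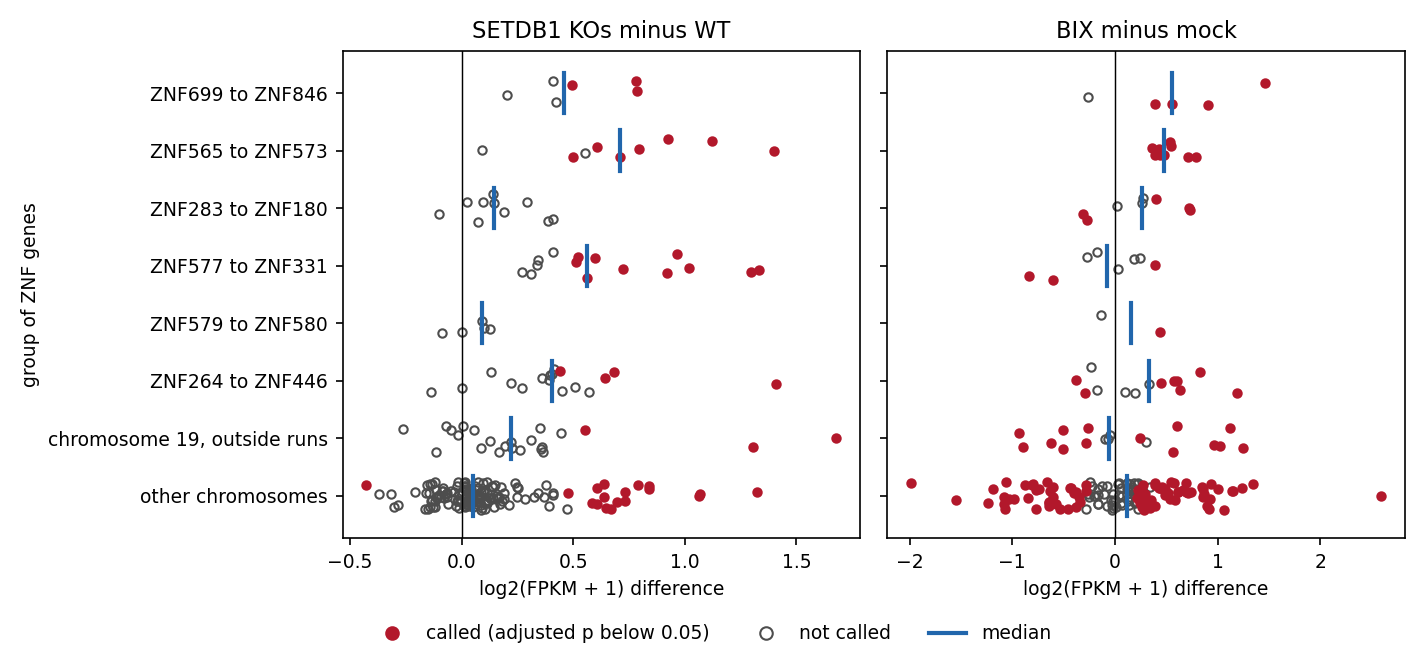
Differences of the ZNF genes on the log2(FPKM + 1) scale by gene-order run of chromosome 19, for the rest of chromosome 19 and for the other chromosomes, in the SETDB1 KOs minus WT (left) and with BIX minus mock (right), 1 point per gene, filled where called and with a blue bar at the median. The run from ZNF565 to ZNF573 is high in both panels (medians 0.71 and 0.48). The run from ZNF577 to ZNF331 has medians of 0.56 in the KOs, over 15 members, and -0.07 with BIX, over the 8 members with a value.

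In the pathway list, 6 genes were called higher and 10 lower with BIX of 25 in the fit, beside 33.6% and 32% of all genes, so the count says nothing particular of the list. The H3K9 methyltransferase SUV39H1 was at 12.8 FPKM with BIX and 20.6 in mock in ATG5 KD, and at 9.74 and 17.5 in Vector (-0.72). The H3K9 demethylase gene KDM4B was at 3.69 with BIX and 7.19 in mock in ATG5 KD, and at 4.02 and 7.11 in Vector (-0.75). TRIM28 fell by 0.48 (adjusted p = 0.00184), and SETDB1 did not pass (0.18, adjusted p = 0.117). EHMT1, a target of BIX, was at 8.67 with BIX and 8.96 in mock in ATG5 KD, and at 10.1 and 10.4 in Vector, and did not pass. EHMT2, the other target, was at 0 FPKM in every group under its own symbol, and a separate locus joins it with ZBTB12. Its reads may be in that joined locus, so its own level cannot be read. That locus was at 9.02 FPKM with BIX and 20.3 in mock in ATG5 KD, and at 10.8 and 22.7 in Vector, where the share of each gene cannot be told apart.

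ATG5 KD changed few ZNF genes. ATG5 RNA itself was at 13.4 FPKM in ATG5 KD and 12.3 in Vector with BIX, and at 10.1 in ATG5 KD and 11.3 in Vector in mock, so that the RNA was not lower in both. Of 200 members 7 were called higher (3.50%, beside 9.06% of all genes tested and 10% of those other than ZNF genes at 3 FPKM or more in WT) and 10 lower (5.00%, beside 5.68% and 5.33%). At least 1.5-fold higher in both mock and BIX was 1 member (beside 1.3% of all genes), and 0 were lower in both (beside 1.11%). At least 2-fold apart were 2 members in mock, both higher (ZNF542P and ZNF283, beside 0.508%), and 1 with BIX, also higher (ZNF542P, beside 1.41%). At 1.5-fold 2 members were higher and 6 lower with BIX (beside 5.01% and 2.8% of all genes). The median member difference was -0.11 with BIX and -0.06 in mock, beside 0.03 and 0.01 over all genes. Both differences were below 0 in 110 members (54.7%, beside 34.3% of all genes) and above 0 in 39 (19.4%, beside 40.3%), and 52 had opposite signs.

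ZNF542P stood apart. It was at 65.3 FPKM in ATG5 KD and 19.97 in Vector with BIX, and at 26.5 in ATG5 KD and 7.94 in Vector in mock (knockdown difference 1.64, adjusted p = 0.000186; BIX difference 1.25, adjusted p = 1.89e-05). The 4 values are all apart, and ATG5 KD with BIX is the highest. It was thus called higher in the SETDB1 KOs, with BIX and in ATG5 KD. Without a filter on low values the knockdown call was lost, as were the other knockdown calls among members. Over all genes, that setting left 0 higher and 1 lower in ATG5 KD, beside 1114 and 698 with the filter. The level of ZNF542P in Vector mock was far below that in the WT libraries of the SETDB1 set (33.6 and 31.7 FPKM), which were normalized in a separate table. Lower in ATG5 KD were, among others, ZNF618 (-0.65), at 1.83 FPKM in ATG5 KD and 4.07 in Vector with BIX and at 5.82 and 8.42 in mock, and ZNF608 (-0.61), at 6.78 and 13.2 with BIX and at 10.9 and 14.2 in mock. Both were chosen after their values were seen, as the largest falls in the fit.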

How the data were processed

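RNA of U2OS cells was measured in 6 libraries (the SETDB1 table) and 4 values (the ATG5 table). The deposited values are FPKM per gene, made by the authors. The submitters' processing notes name cutadapt, FastQC, TopHat2, Cufflinks and the hg19 build. The sources used here give no versions, strandedness, annotation or counts, so the depth behind a value is unknown. FPKM columns summed to between 444637 and 563220.

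The highest-mean row of a repeated symbol was kept (9 ZNF rows dropped), short non-coding RNA genes were left out of tests, and joined loci had no single symbol. log2(FPKM + 1) values were fitted with limma 3.58.1 in R 4.3.3 (moderated variance with a trend) on all genes that reached FPKM 1 in at least 2 columns. All 236 members passed this in the SETDB1 set, and 200 of 201 in the ATG5 set. The SETDB1 fit had 3 groups and 3 residual degrees of freedom. The ATG5 fit was additive in BIX and knockdown. Benjamini-Hochberg adjustment ran over all genes of a contrast, with calls below 0.05. A fold on this scale understates the change of low genes. Values 2-fold apart were counted without a test. The fits were tried on simulated data for the mean of the KOs and for BIX only, not for KO1 or KO2 alone or the knockdown. Few genes were changed in those data, whereas calls with BIX were common over all genes.

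The members and gene lists were chosen with earlier results of these data known. Named genes are those with the largest differences past the test in the mean, KO1 and KO2 (14 at most), those 2-fold apart with BIX in both backgrounds, those 1.5-fold apart in the knockdown in both treatments, those that differ most between KOs or between backgrounds, the highest levels, the threshold neighbours and the targets. Genes of runs and neighbouring families were named after their values were seen. Promoters, gene order and biotypes come from RefSeq (GRCh38.p14), in which 236 members matched, 1 of them by an older symbol. A split by KRAB domain and finger number was not run. Alternatives were another pseudocount, filters, scalings, a replicate block, each library left out and other choices of members.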

Additional observations from a re-analysis of the deposited data

Results flagged for a closer look

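With 1 value per group, differences of opposite sign in 2 backgrounds or treatments were not tested. The BIX difference of ZNF234 on the log2(FPKM + 1) scale was -0.40 in ATG5 KD and 0.45 in Vector, and its ATG5 KD difference was -0.86 with BIX and 0.000668 in mock. ZNF789 had a BIX difference of -0.12 in ATG5 KD and 0.26 in Vector. The ATG5 KD difference of ZNF274 was 0.18 with BIX and -0.15 in mock, and that of ZNF280D was 0.12 with BIX and -0.0644 in mock.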

How the results depend on the processing

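Without a filter on low values, 20 members were higher and 0 lower in the mean of the SETDB1 KOs (219 and 59 over all genes, beside 309 and 98). In that setting 11 were called in KO1, 13 in KO2 and 0 in ATG5 KD. Over all genes the ATG5 KD calls were then 0 higher and 1 lower, beside 1114 and 698. The calls of ZNF185, ZNF32-AS1, ZNF347 and ZNF514 and the knockdown call of ZNF542P were lost. Choosing members at 5 FPKM or more in WT left 145 genes, with a median difference of 0.0743. Of these 17 were higher in the mean of the KOs, beside 2.46% of all genes tested. In KO1 13 were called and in KO2 14, beside 1.91% higher and 0.518% lower in KO1 and 2.01% and 0.438% in KO2 over all genes. With BIX 85 were called. On chromosome 19 these were 18 higher and 7 lower of 32, and elsewhere 38 and 22 of 96, beside 33.6% and 32% of all genes. Leaving out each library in turn gave 25 to 47 higher and 0 to 1 lower members in the mean, 19 to 35 called in KO1, 16 to 38 in KO2 and 0 between the KOs. The lowest counts of higher members came without WT replicate 1, or without KO2 replicate 2 for KO2, and calls over all genes fell there as well. ZNF514 lost its call without WT replicate 1. The fit with a replicate block called 52 higher, with the 44 kept, and 2 lower (351 and 155 over all genes). The labels share only replicate numbers: deviations of same-numbered libraries correlated at 0.200 between KO1 and KO2, 0.376 between KO1 and WT and 0.00359 between KO2 and WT. For the ATG5 set alone, no paired analysis was possible because its values carry no replicate number. Quantile normalization gave 11 called members in ATG5 KD (5 higher, 6 lower) in place of 17 (7 higher, 10 lower). Over all genes it gave 566 higher and 644 lower in place of 1114 and 698. With a pseudocount of 0.1, 27 members (15 higher, 12 lower) in place of 17 were at least 2-fold apart with BIX in Vector, beside 8.32% and 8.66% of all genes. Between ATG5 KD and Vector with BIX there were then 3 (1 higher, 2 lower) in place of 1 higher, beside 2.83% and 1.27%. At 1.5-fold, 66 were apart with BIX in Vector (39 higher, 27 lower, beside 16.9% and 15.1%), 67 in ATG5 KD (40 and 27, beside 18.3% and 14.8%), and 8 between ATG5 KD and Vector with BIX (2 and 6, beside 5.01% and 2.8%), so most of these 8 were lower while the single member 2-fold apart was higher. Centring the ratios left 1 member in place of 2 in mock. Of 262 recomputed values of named genes, 252 kept their direction and their side of the threshold, and the other 10 kept their direction. Depth is unknown, so the precision of low FPKM values cannot be given.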

Other observations

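Zinc finger genes outside the choice were counted as well. Of the 290 ZNF genes below 3 FPKM in WT, 193 reached FPKM 1 in at least 2 libraries, which KO libraries alone could meet. By limma, 88 of these were called higher and 0 lower in the SETDB1 KOs (median 0.47). At an unadjusted p under 0.05, 0 were lower. Over all 12545 genes tested, 2.46% were higher and 0.781% lower. A low WT level chose these genes and is also the baseline, which favours rises, so the counts are a description only. Among zinc finger genes with ZFP, ZKSCAN or ZSCAN symbols at 3 FPKM or more in WT, 5 of 25 were higher and 0 lower (median 0.15). At an unadjusted p under 0.05, 3 were lower. Over all genes other than ZNF genes at that WT level, 0.769% were higher and 0.779% lower.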
